A study of Mus musculus with 18 samples.

Results

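The 10 genes described here carry out antigen presentation by MHC class I, the surface display of peptides cut from a cell's own proteins. They were chosen by symbol and all 10 were found among the 29717 genes of the count tables: H2-K1, H2-D1, B2m, Tap1, Tap2, Tapbp, Psmb8, Psmb9, Psmb10 and Nlrc5. All 10 also passed the filter on low counts in every comparison.

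Proteasomes cut proteins to peptides, and Psmb8, Psmb9 and Psmb10 are the catalytic subunits that take the place of the constitutive ones to form the immunoproteasome. Tap1 and Tap2 together form the transporter that carries peptides into the endoplasmic reticulum, and Tapbp, or tapasin, holds empty class I molecules at that transporter until a peptide is loaded. H2-K1 and H2-D1 are classical class I heavy chains, B2m is the light chain that pairs with every one of them, and Nlrc5 is a nuclear co-activator of these promoters; interferons raise the transcription of most of the set, and cytotoxic T cells and NK cells read the result on the surface of blood cells and their progenitors.

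Transcripts were counted in 18 libraries of lineage-negative progenitors from the bone marrow of BALB/c mice, 9 with an altered Dnmt1 and 9 wild type. Dnmt1 restores DNA methylation on the new strand after replication. The genotype field of the labels reads dnmt1-/- for the mutants, whereas the series' design text describes a missense, hypomorphic change made in mice after fish mutants; the sources used here do not give the age of the animals or the cells in which the allele was changed. The groups were HSC mutant and HSC control (haematopoietic stem cells, 3 libraries each), MPP1 mutant and MPP1 control (early multipotent progenitors, 2 each) and MPP4 mutant and MPP4 control (lymphoid-primed progenitors, 4 each), with no treatment named. Sequencing batches A and C held the HSC libraries, batch C the MPP1 libraries and batches A, B and C the MPP4 libraries, and each batch held as many mutant as control libraries. The column names carry 8 ID numbers, of which 6 recur across populations and 2 occur in MPP4 alone; each is called here after its MPP4 library. The labels do not say that a number is an animal, and the spread behind the p-values may therefore be technical in part.

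Libraries held 354642 to 1943562 counts, with a median of 745850.5. Markers separated MPP4 from HSC: 8 stem cell markers summed to 407 to 1286 CPM (counts scaled to a common library size) in MPP4 and 807 to 2331 CPM in HSC, and 6 lymphoid-priming markers to 1224 to 3192 CPM in MPP4 and 99.0 to 184 CPM in HSC. The stem cell ranges overlapped and the lymphoid ones did not. In MPP1 the same lists summed to 1382 to 1919 CPM and 131 to 182 CPM, within the HSC ranges, so they do not check the MPP1 label. Dnmt1 transcript had 240 ± 105 CPM in HSC mutants against 195 ± 87.5 CPM in HSC controls (SD, n = 3 each), and 281 ± 45.5 CPM in MPP4 mutants against 329 ± 55.4 CPM in MPP4 controls (n = 4 each); the level of a transcript does not check for a missense allele. In 6 libraries the summed markers of another cell type passed 10000 CPM: erythroid markers in HSC mutant 1, MPP1 control 2, MPP4 mutant 2 and MPP4 control 4, neutrophil markers also in MPP4 mutant 2, and B cell markers in HSC control 1 and MPP4 mutant 3. Genes that passed are given with and without these 6. Without them, only the ID numbers of MPP4 control 3 and MPP4 mutant 4 kept an MPP4 library beside an HSC or MPP1 one. Differences of MPP4 from HSC or MPP1 in that setting, fitted within ID numbers, therefore rest mainly on these, and MPP1 control 1 is the only MPP1 control left. In bulk libraries fewer cells of a type and less RNA per cell cannot be told apart, for the 10 genes as for any other.

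In GRCm38 (GENCODE vM21), 7 of the 10 genes lie within 1.35 Mb of chromosome 17. Psmb9, Tap1, Psmb8 and Tap2 are neighbours inside 34.3 kb (chr17:34181987-34216321), and H2-K1 (chr17:33996017-34000347, minus strand) and H2-D1 (chr17:35262730-35267499, plus strand) are 1.26 Mb apart. B2m (chr2:122147686-122153083) is on chromosome 2, and Psmb10 and Nlrc5 are on chromosome 8. Reads of this 3'-end method come from the end of the last exon. Of the 451 overlapping 50-base words in the last 500 bases, 9.5% in H2-D1 and 0.4% in H2-K1 also occurred in other genes, and 0% in the other 8 genes. BALB/c mice carry another class I haplotype than the reference strain, so how many reads of their H2-K1 and H2-D1 alleles were counted is uncertain. Genes on the opposite strand overlap the ends of B2m, Psmb8 and Psmb10, with at most 5, 12 and 1 counts per library.

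RefSeq promoter windows (GRCm38.p6, 250 bases before to 50 after the start) were found for 8 of the 10 genes. They are shown for the heavy chains, their light chain and the promoter region that Tap1 shares with Psmb9. H2-D1 and Psmb9 passed between MPP4 and HSC, and the others are the paired chains and neighbours they are set beside. Tap2, which passed between MPP4 and MPP1, had no window. Capitals mark every match, on either strand, to GGGATTCCC (the NF-kB site of class I promoters, in 0.353% of all 32817 windows), GAANNGAAA and its longer form with GAAA on both sides of NN (interferon-stimulated elements, in 7.52% and 3.43%), TGACG (the core of the site bound by CREB family factors, in 20.8%), CCAAT (the NF-Y box, in 37.4%) and TTCNNNGAA (the STAT site, in 8.29%).
H2-D1, chr17:35262844-35263143, plus strand: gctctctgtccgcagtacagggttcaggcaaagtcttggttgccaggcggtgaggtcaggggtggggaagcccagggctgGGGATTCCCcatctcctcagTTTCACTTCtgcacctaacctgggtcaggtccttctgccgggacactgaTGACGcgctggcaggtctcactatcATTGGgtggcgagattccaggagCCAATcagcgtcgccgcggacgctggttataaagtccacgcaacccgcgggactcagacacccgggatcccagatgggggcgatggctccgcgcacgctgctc
H2-K1, chr17:34000284-34000583, minus strand: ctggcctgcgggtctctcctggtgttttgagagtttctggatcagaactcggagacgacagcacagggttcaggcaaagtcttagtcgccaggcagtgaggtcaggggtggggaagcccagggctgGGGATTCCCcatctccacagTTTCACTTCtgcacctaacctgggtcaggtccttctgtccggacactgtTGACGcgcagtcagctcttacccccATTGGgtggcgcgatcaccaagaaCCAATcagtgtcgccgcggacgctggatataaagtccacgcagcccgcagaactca
B2m, chr2:122147437-122147736, plus strand: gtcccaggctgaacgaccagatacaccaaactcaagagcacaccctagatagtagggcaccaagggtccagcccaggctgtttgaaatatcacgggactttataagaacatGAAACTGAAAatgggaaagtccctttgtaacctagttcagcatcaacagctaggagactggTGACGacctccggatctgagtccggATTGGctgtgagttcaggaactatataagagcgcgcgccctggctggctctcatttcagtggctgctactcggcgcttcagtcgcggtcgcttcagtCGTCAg
Tap1, chr17:34187306-34187605, plus strand: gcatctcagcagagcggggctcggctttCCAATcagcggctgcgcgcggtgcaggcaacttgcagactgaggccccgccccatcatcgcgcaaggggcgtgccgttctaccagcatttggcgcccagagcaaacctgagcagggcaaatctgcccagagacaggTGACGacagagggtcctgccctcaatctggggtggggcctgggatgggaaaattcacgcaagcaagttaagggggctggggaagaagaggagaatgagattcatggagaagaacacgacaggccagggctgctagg
The H2-D1 and H2-K1 windows hold the same motifs in the same order and share an unbroken run of 47 bases around the NF-kB match. Aligned on that run without gaps, they are identical at 70.9% of 254 bases. Identity with gaps allowed was not computed. B2m holds the longer interferon element with a CCAAT and TGACG matches, and no NF-kB match. The Tap1 and Psmb9 starts lie 226 bases apart on opposite strands, so their windows share 275 bases. Psmb8 holds the only STAT match among the 8 windows. CpG sites, the bases that Dnmt1 methylates, numbered 3 in the window of Psmb10 to 19 in that of H2-D1, with a median of 7 over all windows. A match is a description of these letters and says nothing of binding.

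All 10 genes were counted in all 18 libraries. B2m had 454 to 7064 counts, H2-D1 249 to 4848 and H2-K1 315 to 2341. Psmb8 had 114 to 1392 counts, and Tap1, Tap2, Tapbp, Psmb9 and Psmb10 had between 29 and 579. Nlrc5 was the least counted, with 6 to 122, which limits its precision. Deposited counts had been corrected for tag collisions, which raised the highest B2m value by 110% over its distinct tags and the highest H2-D1 value by 70.6%. The spread between the lowest and the highest library was 1.94-fold for H2-K1, 2.55-fold for B2m, 3.26-fold for H2-D1 and 5.91-fold for Tap2.

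**Figure D1:**
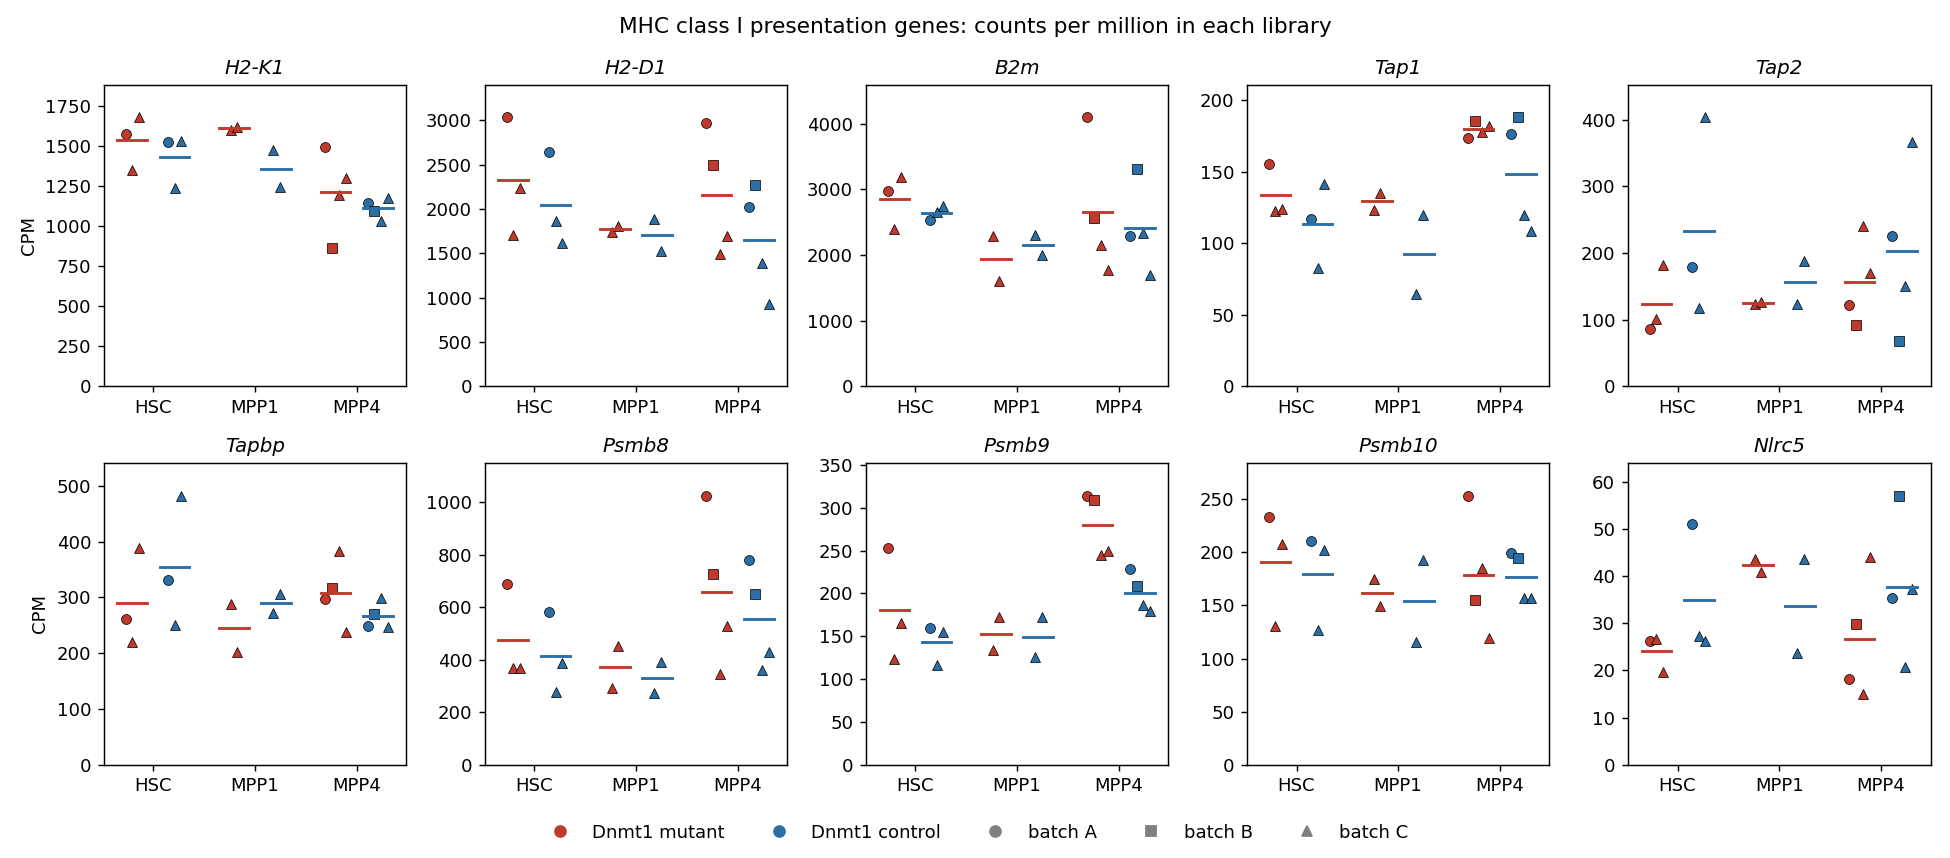
CPM of each of the 10 genes (linear axis from 0) in every library by population, with mutants in red left of controls in blue, batches as marker shapes and bars at the group means. Psmb9 and Tap1 stand highest in MPP4, H2-K1 lowest there, and the mutants lie above the controls without overlap for Psmb9 in MPP4 (245 to 314 against 179 to 228 CPM).

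The series compared the transcriptomes of mutant and wild-type progenitors, and none of the 10 genes passed the test for genotype in any population. In HSC, 0 of 10 passed with edgeR's quasi-likelihood test (Benjamini-Hochberg adjusted p under 0.05), against 0.241% of the 9147 genes tested, and 0 of 10 had an unadjusted p under 0.05, against 10% of all. With the replicate number as a block in HSC, 40 in place of 22 genes passed, and again none of the 10. In MPP1, 0 of 10 passed, against 0.225% of 8004 genes, and 0 had an unadjusted p under 0.05, against 4.86% of all. In MPP4, 0 of 10 passed, against 0.0852% of 9392 genes, and 1, Psmb9, had an unadjusted p under 0.05, against 7.11% of all. DESeq2 passed none either. The median mutant minus control difference of the 10 genes was 0.08 in HSC, 0.12 in MPP1 and 0.16 in MPP4 on the log2 scale, beside 0.01, -0.0037 and -0.0043 over all genes tested.

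Among the heavy and light chains, H2-D1 had 3036, 1712 and 2232.5 CPM in HSC mutants, against 2649, 1868 and 1615 CPM in HSC controls. In MPP4 it had 2971, 2495, 1489 and 1697 CPM in mutants, against 2027, 2268, 1392 and 930.2 CPM in controls. The groups overlapped in both populations, and the libraries of batches A and B stood above those of batch C in either genotype. The H2-D1 difference was 0.16 (SE 0.24) in HSC, 0.09 (SE 0.31) in MPP1 and 0.41 (SE 0.24) in MPP4. H2-K1 differed by 0.08 in HSC, 0.28 in MPP1 and 0.10 in MPP4, and B2m by 0.08, -0.10 and 0.11 in the same order. In MPP1, H2-K1 had 1601 and 1619.6 CPM in mutants, against 1477 and 1241 CPM in controls, with no overlap, but 14.6% of the genes tested there had mutants above controls without overlap and 19.3% the opposite.

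Of the genes that move and load peptides, Tap1 had 123 and 135 CPM in MPP1 mutants, against 64.6 and 119.8 CPM in MPP1 controls, again without overlap. Its difference was 0.24 in HSC, 0.58 (SE 0.31) in MPP1 and 0.30 in MPP4. Tap2, its partner in the transporter, lay the other way: 86.9, 102 and 183 CPM in HSC mutants, against 179.5, 118 and 404 CPM in HSC controls. The groups overlapped, with 1 control far above the rest, and the difference was -0.94 (SE 0.49, edgeR adjusted p = 0.587). The control at 404 CPM shares the ID number of MPP4 control 4, whose libraries held the most Tap2 in all 3 populations (189 CPM in MPP1 control 2 and 366 CPM in MPP4 control 4). Without HSC control 2, which left 3 mutants and 2 controls, the Tap2 difference in HSC was -1.37 with an edgeR adjusted p of 0.00461. With no filter on low counts it was -0.91 with an adjusted p of 0.0499. Tapbp differed by -0.32 in HSC, -0.20 in MPP1 and 0.22 in MPP4.

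The immunoproteasome subunit Psmb9 had 314, 309, 245 and 249.8 CPM in MPP4 mutants, against 228, 209, 187 and 179 CPM in MPP4 controls. Every mutant library lay above every control library there, as for 1.32% of the genes tested. The means were 279 ± 37.0 CPM in mutants and 201 ± 22.2 CPM in controls (SD, n = 4 each), and the difference was 0.48 (SE 0.19) with an edgeR adjusted p of 0.594. In HSC it had 253, 123 and 165 CPM in mutants, against 159.8, 116 and 155 CPM in controls, and the groups overlapped (0.27, SE 0.24). In MPP1 it had 134 and 172 CPM in mutants, against 126 and 172 CPM in controls. Psmb8 differed by 0.16 in HSC, 0.21 in MPP1 and 0.21 in MPP4, and Psmb10 by 0.06, 0.14 and -0.01. Nlrc5 differed by -0.50 (SE 0.34) in HSC, 0.45 (SE 0.42) in MPP1 and -0.36 (SE 0.36) in MPP4, with overlapping groups in each.

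With all 18 libraries in a single limma voom fit, 0 of 10 genes passed, against 0.744% of 10613 genes, and 3 had an unadjusted p under 0.05, against 11.7% of all. These were Psmb9 at 0.37 (SE 0.13, limma adjusted p = 0.246), Tap1 at 0.34 (SE 0.15, adjusted p = 0.363) and H2-D1 at 0.26 (SE 0.11, adjusted p = 0.363), all higher in mutants. Tap2 was at -0.40 (SE 0.24). Within each population and batch, mutants exceeded controls for Psmb9, Psmb8 and H2-D1 in 6 of 6 strata, for H2-K1 in 5, for Tap1 and Psmb10 in 4, for B2m and Tapbp in 3, and for Tap2 and Nlrc5 in 1. The strata are not independent: those of batch A share their ID numbers across populations, as do those of batch C. The share of all genes with such counts was not computed, so the counts only describe these genes. The Psmb9 differences in those strata were 0.04 to 0.66, with 0.46 in batch A, 0.56 in batch B and 0.43 in batch C of MPP4. The same fit passed 6 of 9 neutrophil markers as higher in mutants, Ltf, Retnlg, Lcn2, Camp, Ngp and Mmp8. It also passed 2 of 11 erythroid markers as higher in mutants, Alas2 and Slc4a1. Fitted within populations none of either list passed: of the erythroid markers tested, 7 of 7 were higher in mutants in HSC, 1 of 4 in MPP1 and 1 of 5 in MPP4, and of the neutrophil markers 0 of 1 in MPP1 and 0 of 2 in MPP4. In MPP1 the high library was a control: erythroid markers summed to 760 to 853 CPM in mutants and 831 to 31498 CPM in controls, and neutrophil markers to 22.5 to 59.1 CPM and 14.1 to 7912 CPM. The erythroid markers summed to 405 to 232859 CPM in MPP4 mutants and 326 to 41708 CPM in MPP4 controls, and the neutrophil markers to 14.4 to 38643 CPM and 4.77 to 4943 CPM, with none of either list at 0 throughout an MPP4 group. The part of these markers in the differences was not tested. Without the 6 libraries rich in such markers the Psmb9 difference was 0.31 (SE 0.17) over all populations and 0.44 (SE 0.30) in MPP4. In MPP4 that left MPP4 mutant 1 and MPP4 mutant 4, beside MPP4 control 1, MPP4 control 2 and MPP4 control 3.

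Whether the genotype difference itself varied between populations was tested in an edgeR model over all 18 libraries. None of the 10 genes passed for MPP1 against HSC, MPP4 against HSC or MPP4 against MPP1, and none had an unadjusted p under 0.05. The share of all genes that passed was 0%, 0.0283% and 0%, and the share with an unadjusted p under 0.05 was 4.76%, 3.88% and 4.39%. The fitted differences of differences ran from -0.30 to 0.70, both for Nlrc5.

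**Figure D2:**
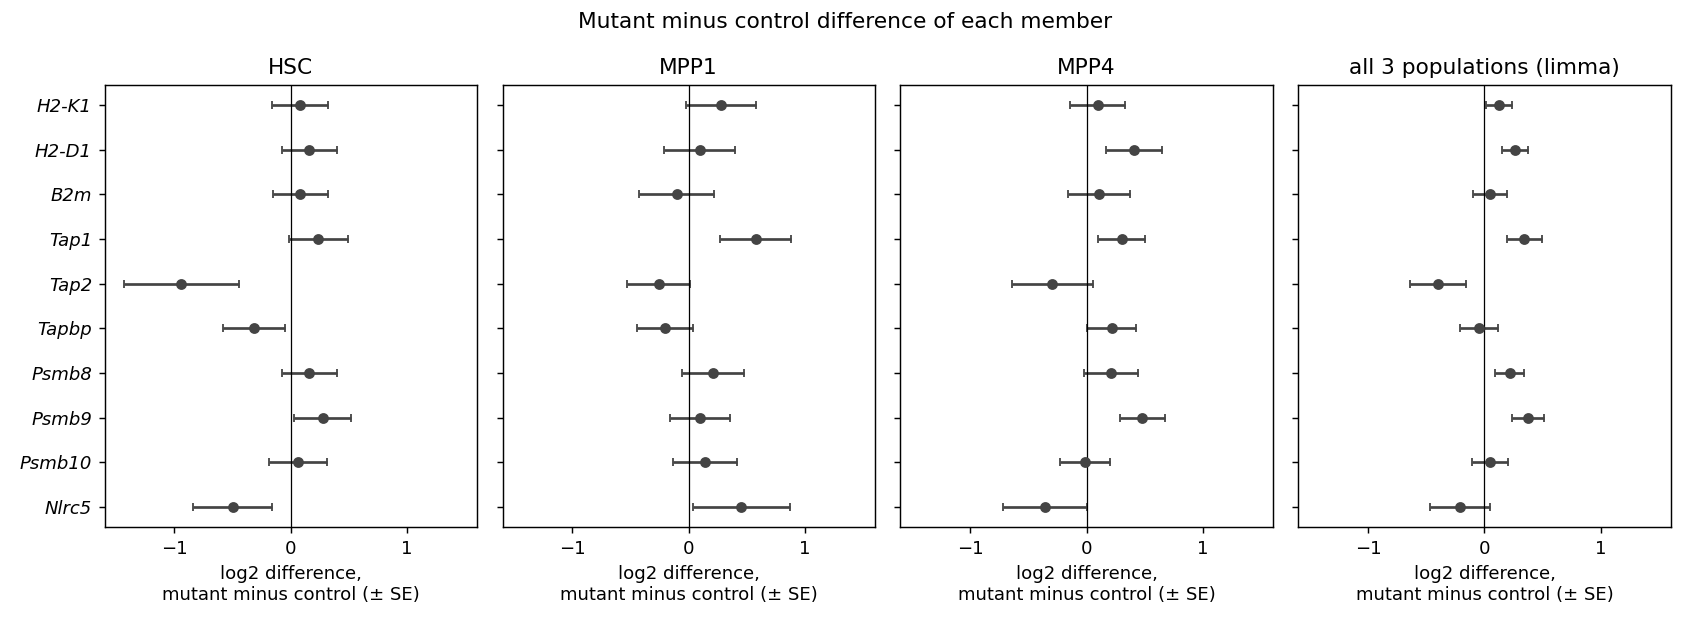
Mutant minus control log2 difference of each gene in HSC, MPP1, MPP4 and all 3 populations together (points, with bars of 1 standard error; positive means higher in mutants). No gene passed the test; Psmb9 in MPP4 stood at 0.48 and Tap2 in HSC at -0.94, the points farthest from 0 in those panels.

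Between populations the class I set did not move as a block: between MPP4 and HSC, Psmb9 was higher in MPP4 and H2-D1 lower. These were 2 of 10 genes that passed the edgeR test with the ID number as a block, against 20% of 10613 genes tested (10.9% higher and 9.15% lower in MPP4), so the share of the set that passed was that of genes in general. The set's median difference was -0.07, beside -0.03 over all genes. Another 4 of the 10 had an unadjusted p under 0.05 without passing, and 28.9% of all genes had such a p.

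H2-D1 was 0.38 lower on the log2 scale in MPP4 (difference -0.38, SE 0.13, edgeR adjusted p = 0.0324). Within ID numbers it was lower in 6 of 6, by differences of -0.79 to -0.013; the smallest gap was 1697 CPM in MPP4 mutant 4 against 1712 CPM in HSC mutant 2, and the largest 930.2 CPM in MPP4 control 4 against 1615 CPM in HSC control 3. The call was lost when the ID number of MPP4 mutant 3, MPP4 mutant 4, MPP4 control 1, MPP4 control 3 or MPP4 control 4 was left out (adjusted p of 0.295, 0.0770, 0.0652, 0.0639 and 0.0804), in batch C alone (0.0550), without the block (0.110), with no filter (0.0963), in mutants alone (-0.22, adjusted p = 0.570), in controls alone (-0.54, adjusted p = 0.103) and without the 6 marker-rich libraries (-0.29, adjusted p = 0.457). H2-K1 was lower in MPP4 in 6 of 6 ID numbers as well, with a difference of -0.29 (SE 0.13, adjusted p = 0.124) and ranges of 867 to 1492 CPM in MPP4 and 1235 to 1679 CPM in HSC. B2m had a difference of -0.27 (SE 0.14) and was lower in 5 of 6, the exception being MPP4 mutant 1 with 4095.6 CPM against HSC mutant 1 with 2967 CPM. Without the ID number of those 2 libraries B2m passed at -0.43 (adjusted p = 0.0242), as it did in batch C alone at -0.46 (adjusted p = 0.0474).

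Psmb9 was 1.46-fold higher in MPP4 (log2 difference 0.55, SE 0.13, edgeR adjusted p = 0.00177). Its CPM were higher in MPP4 in 6 of 6 ID numbers, by 0.21 to 1.01. The largest step was 249.8 CPM in MPP4 mutant 4 against 123 CPM in HSC mutant 2, and the smallest 179 CPM in MPP4 control 4 against 155 CPM in HSC control 3. Without the 6 marker-rich libraries the difference was 0.75 (SE 0.22). It then rested mainly on the ID numbers of MPP4 mutant 4 and MPP4 control 3, which had the largest of the 6 steps (1.01 and 0.68). Among the alternatives tried the call was lost only with the controls alone (0.50, adjusted p = 0.0754). Psmb8 had a difference of 0.32 (SE 0.13, adjusted p = 0.0755) and was higher in 5 of 6 ID numbers. Psmb10 did not pass, at -0.04 (SE 0.13), and was higher in 2 of 6.

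Tap1, divergent neighbour of Psmb9, had 173, 185, 178 and 182 CPM in MPP4 mutants and 177, 188, 120.0 and 108 CPM in MPP4 controls, against 156, 122 and 124 CPM in HSC mutants and 117, 82.5 and 142 CPM in HSC controls. Its difference was 0.36 (SE 0.14, adjusted p = 0.0637), higher in MPP4 in 5 of 6 ID numbers and not in that of MPP4 control 4, without which it passed at 0.46 (adjusted p = 0.0223). Tap2 was higher in MPP4 in 5 of 6, at 0.35 (SE 0.14, adjusted p = 0.0858), and without that of MPP4 control 4 it passed at 0.41 (adjusted p = 0.0450). Without that of MPP4 mutant 1, Tap1 passed at 0.43 (adjusted p = 0.0294), and 4 of the 10 genes in all; with the stricter filter Tap1 passed at 0.37 (adjusted p = 0.0473). Tapbp and Nlrc5 were at -0.14 (SE 0.13) and -0.09 (SE 0.23), and neither had an unadjusted p under 0.05.

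Some markers of mature blood cells were also higher in MPP4; bulk libraries do not separate other cells from the progenitors' own transcripts. Between MPP4 and HSC, 5 of 10 T cell markers were tested, and Lck, Trbc2, Trbc1 and Cd4 rose. Only Nkg7 of 6 NK cell markers was tested, and it rose. For monocytes and macrophages 4 of 9 were tested, and Csf1r and Cd68 rose. All 11 erythroid markers were tested, and Klf1, Car2, Epor and Car1 fell. Over all genes 10.9% rose and 9.15% fell. Among markers not tested, Cd3e averaged 0.934 CPM in MPP4 controls and 0 in MPP4 mutants, Cd3d 1.87 and 15.4 CPM, and Gzma 0 in every group. The 12 B cell markers summed to 827 to 12501 CPM in MPP4 mutants and 900.4 to 3897 CPM in MPP4 controls, against 31.9 to 95.0 CPM in HSC mutants and 23.6 to 35364 CPM in HSC controls, where HSC control 1 alone exceeded 33.6 CPM. Among them Cd79a was at 0 in all MPP4 mutants and in all HSC libraries. The 6 dendritic cell markers summed to 16.8 to 349 CPM in MPP4 mutants and 94.5 to 329 CPM in MPP4 controls, against 0 to 4.53 CPM in HSC mutants and 0 to 65.9 CPM in HSC controls, with Siglech at 0 in MPP4 mutants. The part of these markers in the Psmb9 difference was not tested, and its value without the 6 marker-rich libraries stands above.

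**Figure D3:**
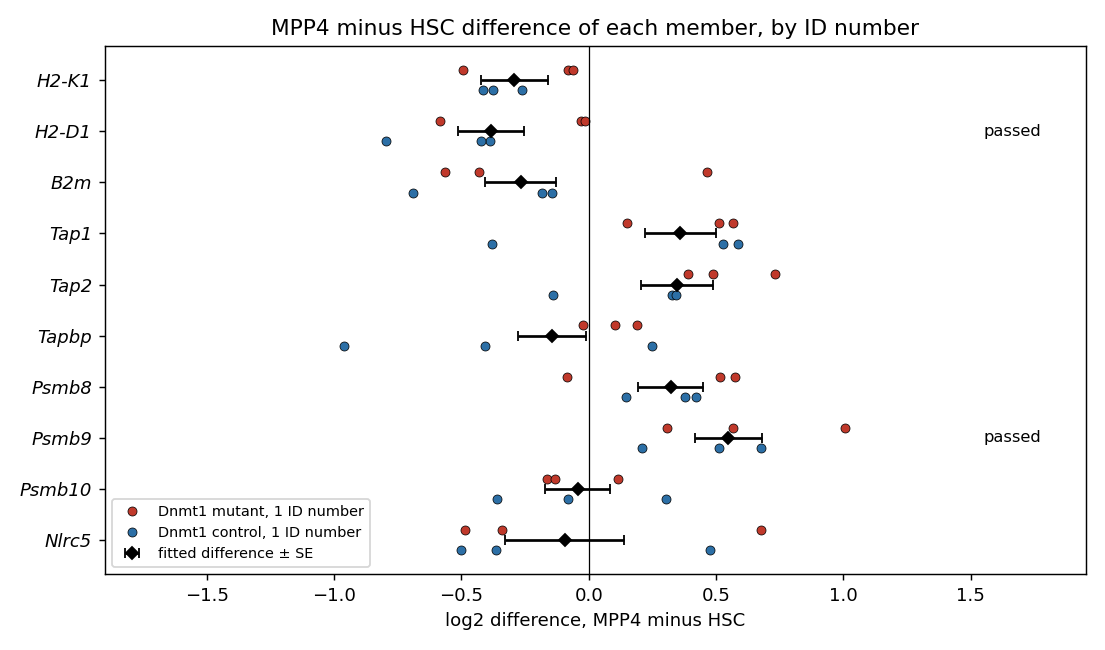
MPP4 minus HSC log2 difference of each gene within each ID number (red mutants, blue controls) and as fitted (black diamonds, bars of 1 standard error), with the genes that passed marked. All 6 points of Psmb9 lie above 0 and all 6 points of H2-D1 and H2-K1 below it.

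MPP4 against MPP1 gave 1 of 10 genes past the edgeR threshold, against 11.1% of 10613 genes (5.72% higher in MPP4) and 22.3% at an unadjusted p under 0.05. It was Tap2, at 0.62 (SE 0.17, adjusted p = 0.0135), higher in MPP4 in 4 of 4 ID numbers. Tap2 had 123, 91.6, 240.2 and 170.2 CPM in MPP4 mutants and 226, 68.3, 150.2 and 366 CPM in MPP4 controls, against 123 and 126.9 CPM in MPP1 mutants and 123 and 189 CPM in MPP1 controls. The ranges overlapped. The call was lost without the 6 marker-rich libraries (0.45, adjusted p = 0.232), in mutants alone (0.60, adjusted p = 0.191), in controls alone (0.64, adjusted p = 0.137), without the number of MPP4 mutant 3 (adjusted p = 0.222) and without that of MPP4 control 4 (adjusted p = 0.161). Without the block it was 0.72 with an adjusted p of 0.406, and no gene of the set passed. Psmb9 at 0.46 (SE 0.16, adjusted p = 0.0525) and Tap1 at 0.46 (SE 0.17, adjusted p = 0.0785) were close to the threshold, and both passed without the number of MPP4 mutant 1 (adjusted p of 0.0219 and 0.0380) and without the 6 marker-rich libraries (0.63 and 0.66, adjusted p of 0.0415 and 0.0446), and Tap1 without the number of MPP4 control 4 (0.62, adjusted p = 0.0312). H2-K1 and H2-D1 had differences of -0.35 and -0.34, lower in MPP4 in 4 of 4 ID numbers each, and did not pass. MPP1 against HSC gave 0 of 10 genes, against 0.367% of all genes, and 0 at an unadjusted p under 0.05, against 8.37%. B2m had the difference nearest to the threshold there, -0.32 (SE 0.16), lower in MPP1 in 4 of 4 ID numbers.

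Each immunoproteasome subunit replaces 1 constitutive subunit, and the log2 ratio of each such pair was set between populations within ID numbers. The ratio of Psmb9 to Psmb6 was higher in MPP4 than in HSC by 0.75 (SD 0.41 over ID numbers, higher in 6 of 6), and that of Psmb8 to Psmb5 by 0.51 (SD 0.20, higher in 6 of 6). Both had an exact two-sided sign-flip p of 0.03125, the smallest that 6 pairs allow, and an adjusted p of 0.141 over the 9 ratio comparisons made. The ratio of Psmb10 to Psmb7 was -0.22 (SD 0.23), higher in 1 of 6 (exact p = 0.09375, adjusted p = 0.225). With the 4 ID numbers shared with MPP1, an exact p below 0.125 cannot be reached. Over the 9 comparisons together no adjusted p under 0.05 could be reached, whatever the ratios, so the adjusted values decide nothing. The ratio of Psmb9 to Psmb6 was higher in MPP4 than in MPP1 by 0.76 in 4 of 4, and that of Psmb8 to Psmb5 was higher in MPP1 than in HSC by 0.44 in 4 of 4. A ratio moves with either subunit. Psmb8 itself differed by only 0.04 (SE 0.15) between MPP1 and HSC. Psmb5 had 31.2 ± 6.81 CPM in MPP1 (SD, n = 4), 67.9 ± 50.2 CPM in HSC (n = 6) and 59.8 ± 46.4 CPM in MPP4 (n = 8). Its low level, down to 22.4 CPM in MPP4, limits the precision of its ratio.

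Across the 18 libraries the genes did not vary as 1 unit. Of the 45 pairs, Tap1 and Psmb9 had the highest correlation of log2 CPM (Pearson's r = 0.80), followed by Psmb8 and Psmb9 (0.79), Tap1 and Psmb8 (0.69) and H2-D1 and B2m (0.67). The pair of heavy chains, H2-K1 and H2-D1, was at 0.18, and the lowest pair was H2-D1 and Tap2 at -0.59. The values were also centred on group and batch, as residuals of a fit with additive terms for both. Tap1 and Psmb9 were then at 0.58, H2-D1 and B2m at 0.59, and Tapbp and Psmb10 had the highest value, 0.84, beside 0.50 as measured. Such centring leaves fewer independent values than the 18 libraries. H2-D1 and Psmb8 changed sign under that centring (0.56 as measured and -0.27 after it). These values describe the libraries, which share populations, batches, depth and ID numbers. Outside the set, the genes whose log2 CPM followed the mean of the 10 most closely among 10603 were Nelfcd (0.86), Cope (0.83), Pkig (0.82), Prkcsh (0.81) and Tmem50a (0.79); the value of Psmb10, a member, was 0.88.

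**Figure D4:**
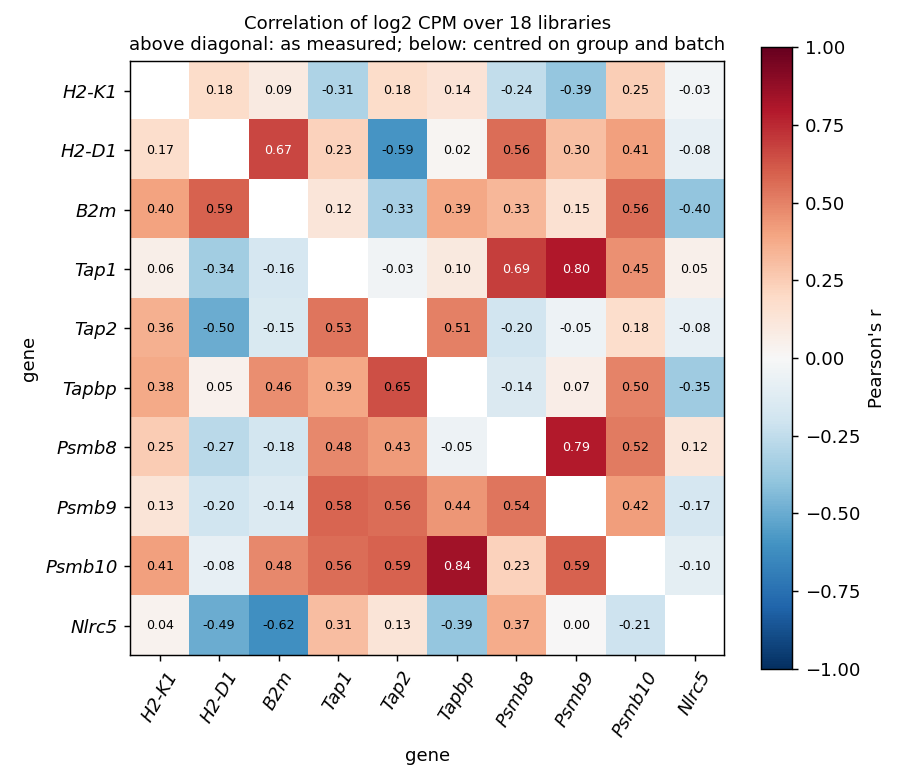
Pearson's r of log2 CPM between the 10 genes over 18 libraries, as measured above the diagonal and after centring on group and batch below it. The block of Tap1, Psmb8 and Psmb9 stands out above the diagonal at 0.69 to 0.80, and Tapbp with Psmb10 below it at 0.84.

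Other genes of the pathway were counted for the same comparisons. No gene of the 5 lists passed between genotypes in any population or over all 3. Of the 7 constitutive catalytic subunits and activator genes, 6 were higher in mutants in HSC, 4 in MPP1, 7 in MPP4 and 7 over all populations, where 5482 of all 10613 genes were higher. The median over all populations was 0.30, beside 0.01 over all genes. There 4 of 7 had an unadjusted p under 0.05, against 11.7% of all genes. Without the 6 marker-rich libraries, 7 of 7 were higher (median 0.27), and 1 had an unadjusted p under 0.05, against 9.23% of all genes. The largest difference with all 18 libraries was that of Psmb5, the constitutive partner of Psmb8, at 0.65 (limma adjusted p = 0.108). Psmb5 had 89.5 ± 67.5 CPM in HSC mutants and 46.3 ± 18.5 CPM in HSC controls (SD, n = 3 each). In MPP4 it had 73.6 ± 62.9 CPM in mutants and 45.9 ± 23.5 CPM in controls (n = 4 each). The part of single ID numbers in these differences was not tested. Of 11 other class I and class I-like genes tested, 8 were higher in mutants over all populations, with a median of 0.40 and 2 at an unadjusted p under 0.05. H2-T23, which encodes the NK cell ligand Qa-1, was at 0.46 (limma adjusted p = 0.254).

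Between MPP4 and HSC, 4 of those 11 class I genes passed the edgeR test, against 20% of all genes, and 3 of the 4 fell. H2-T3 fell to 7.03 ± 3.89 CPM in MPP4 (SD, n = 8), against 21.6 ± 7.90 CPM in HSC (n = 6), a difference of -1.74 (adjusted p = 0.000203). H2-T22 fell by 0.57 and H2-T23 by 0.55 on the log2 scale, the same direction as H2-D1, while Hfe, an iron regulator built like a class I chain, rose by 1.62 with very few counts (11.3 ± 5.09 CPM in MPP4, against 2.86 ± 1.82 CPM in HSC). Without the 6 marker-rich libraries H2-T3 (-1.55, adjusted p = 0.0321) and H2-T23 (-0.66, adjusted p = 0.0261) passed, and H2-T22 (-0.57, adjusted p = 0.0998) and Hfe (1.90, adjusted p = 0.185) did not. Class I genes of the Q and T families have near-identical copies, so the counts of single members are uncertain. Of 22 genes that control class I transcription, 4 rose and 2 fell: Ifnar2, a chain of the type I interferon receptor, had 142.9 ± 42.3 CPM in MPP4 against 61.3 ± 8.88 CPM in HSC (1.34, adjusted p = 1.7e-08), Ciita, the class II counterpart of Nlrc5, was at 2.58 (adjusted p = 0.00109), and the kinases Jak2 and Jak1, which signal for interferon receptors, were at -0.76 and -0.47 (adjusted p = 0.00251 and 0.00560). Of 20 interferon-response genes outside presentation, Ifi27l2a (2.28), Rtp4 (0.88) and Irf7 (0.77) rose, and Iigp1 (-0.76) fell. Without the 6 libraries, where 12.1% of all genes passed, Ifnar2, Ciita, Ifi27l2a and Rtp4 passed, and Jak1 (adjusted p = 0.384), Jak2 (0.0841), Irf7 (0.0760) and Iigp1 (0.110) did not. None of the 5 loading chaperones and trimming genes and none of the 7 constitutive proteasome genes passed.

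Between MPP4 and MPP1, where 11.1% of all genes passed, 2 of the 11 class I genes fell, H2-T23 by 1.18 and H2-T3 by 1.89. Of the 22 control genes 4 rose and 1 fell, among them Ciita (3.29, edgeR adjusted p = 0.00337), Ifnar2 (1.04), Irf1 (0.56), an interferon-induced activator, and Jak1 (-0.59). Of the 20 interferon-response genes 1 rose, Ifi27l2a (2.33), and none of the chaperone or constitutive proteasome genes passed. Without the 6 libraries H2-T23, H2-T3, Ifnar2, Ciita and Ifi27l2a passed, and Irf1 (adjusted p = 0.0647) and Jak1 (0.119) did not. Between MPP1 and HSC no gene of the 5 lists passed.

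The authors' deposited table gives DESeq2 values for the same genes by population. It names no direction, so its sign was read from its correlation with the mutant minus control differences computed here, 0.93 over 7593 genes in HSC, 0.89 over 5187 in MPP1 and 0.92 over 8972 in MPP4. In the authors' deposited table Psmb9 had a log2 fold change of 0.43 (SE 0.23, p = 0.0644) in MPP4 and Tap2 one of -0.63 (SE 0.32, p = 0.0519) in HSC. The authors' deposited table lists an adjusted p of 0.998 or more for each of the 10 genes in each population.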

How the data were processed

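Expression was measured with CEL-Seq2, which tags each captured molecule at its 3' end; per the labels' protocols, cells were sorted into lysis buffer without RNA extraction. The count tables the authors deposited hold whole-number estimated counts: of the 1557 values from 1000 up to but not including the highest, 100% were values that correcting for collisions among tags of 6 bases can yield. Per the submitters' processing notes the build was mm10, with R 3.4.0 and DESeq2; no aligner, counting program or annotation is named in the sources used here. Result tables the authors deposited hold, per the file headers, a mean signal, a log2 fold change with its standard error, a test score, a p-value and an adjusted p-value.

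Counts were used as deposited. Replicates differed beyond sampling noise in every pair (chi-square over genes divided by its degrees of freedom, 2.96 to 73.9), so each library was 1 sample. Genotype was tested in each population with edgeR 4.0.16 in R 4.3.3 (TMM, edgeR's own filter at a minimum count of 10, and a quasi-likelihood fit, robust, with terms for batch and genotype, or for genotype only in MPP1, which has 1 batch), and over all 18 libraries with limma 3.58.1 voom (population, batch and genotype, with a correlation of 0.21 within ID numbers). Populations and differences of the genotype effect were tested with edgeR over 18 libraries, blocked on the ID number. P-values were adjusted over all genes tested (Benjamini-Hochberg, threshold 0.05). CPM used TMM factors over all 18 libraries; log2 CPM had a prior count of 2. Two-sided exact sign-flip tests over ID numbers were used for ratios. DESeq2 1.42.0 and the other alternatives are described in the closing section. The fits were also run on simulated data, with planted changes larger than any difference of the 10 genes and the same spread for every gene. That run does not show how changes of the size reported here are recovered.

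Same-numbered mutant and control replicates deviated together in HSC (correlations of 0.49, 0.20 and 0.22 over 9147 genes). Within batch C, differently numbered ones did so too: HSC mutant 3 with HSC control 2 at 0.24, and HSC mutant 2 with HSC control 3 at 0.12. Batch was not taken out of these deviations, so the numbers are not shown to pair the HSC samples. In MPP4 the same-numbered correlations were 0.33, -0.022, 0.34 and -0.017, and MPP1 has only 2 pairs.

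All 10 genes were tested in every comparison. The text gives the difference of each for MPP4 against HSC, and of some of them only for the other comparisons. From the other lists the rule was to name each gene that passed between genotypes and up to 4 per list, by adjusted p, between populations. It was not followed for all cell type markers, some of which are given as sums only. Psmb5 and H2-T23 (genotype) fall outside the rule and were chosen after their values were seen. The genes and lists were chosen with earlier results of these data known. All value columns could be matched to samples.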

Additional observations from a re-analysis of the deposited data

How the results depend on the processing

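Limits. The genotype comparisons hold 2 to 4 libraries per group at 354642 to 1943562 counts, and a difference that missed the threshold there is not shown to be absent. Nlrc5, with 6 to 122 counts, is the least precise. Alternatives were RLE size factors, DESeq2, a minimum count of 30 or no filter, no batch term, 1 spread over all groups, batch C alone, each genotype alone, the replicate block and each library or ID number left out. Distinct tags in place of corrected counts, and leaving out the 6 marker-rich libraries, were added after seeing the data. The cause of the changes below was not tested.

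The number of the 10 genes that passed between MPP4 and HSC (2) was 0 in controls alone, 1 in mutants alone, 1 with no filter, 1 with no replicate block, 1 without the 6 marker-rich libraries, and 1 to 4 with ID numbers left out in turn. H2-D1 was the gene lost wherever 1 of the 2 remained, in batch C alone B2m took its place, and with the stricter filter Tap1 was added. Between MPP4 and MPP1 (1) it was 2 in batch C alone, with RLE size factors, with the stricter filter and without the 6 libraries, 0 in controls alone, in mutants alone and with no replicate block, and 0 to 3 with ID numbers left out. Without the 6 libraries Tap2 was lost and the 2 were Psmb9 and Tap1; in the other 3 settings with 2, Psmb9 joined Tap2. For genotype in HSC (0) it was 1 with no filter and 0 to 1 with libraries left out. In the other 7 comparisons the count stayed at 0 under each alternative tried. The replicate numbers are not shown to pair the HSC samples. With the replicate block 40 in place of 22 of the 9147 genes passed in HSC, again none of the 10. With it 43 in place of 18 genes passed in MPP1, 11 in place of 8 in MPP4 and 29 in place of 79 over the 3 populations. None of the 10 genes passed with it in any of these.

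Log2 differences of single genes that took the opposite sign, all short of the threshold, follow. With DESeq2: Psmb10 0.00383 (genotype in MPP4). With RLE size factors: Psmb10 0.00547 (MPP4 against MPP1), Psmb10 0.00382 (genotype in MPP4). In batch C alone: Nlrc5 0.17 (MPP4 against HSC), B2m -0.0475 (MPP4 against MPP1), B2m -0.0873, Nlrc5 0.27 (genotype in MPP4), B2m -0.0749, Nlrc5 0.33 (genotype over the 3 populations). In controls alone: H2-K1 -0.0477 (MPP1 against HSC), B2m -0.0369, Psmb10 0.13, Tapbp -0.0414 (MPP4 against MPP1). With distinct tags in place of corrected counts: B2m -0.0116 (MPP4 against MPP1), B2m -0.0433 (genotype in HSC), B2m 0.0902 (genotype in MPP1). In mutants alone: Psmb10 0.0774, Tap1 0.0565 (MPP1 against HSC), Nlrc5 0.10, Tapbp 0.0826 (MPP4 against HSC). Without a batch term: Psmb10 0.0108 (genotype in MPP4). With no filter: Psmb10 0.0202 (MPP4 against MPP1). With the stricter filter: Psmb10 0.0218 (MPP4 against MPP1). Without the 6 marker-rich libraries: Nlrc5 0.20, Psmb10 0.0262, Tapbp 0.13 (MPP4 against HSC), Psmb10 0.10 (MPP4 against MPP1), H2-D1 -0.0364, Tap2 0.0738 (genotype in MPP1), Nlrc5 0.13, Tapbp -0.0406 (genotype in MPP4), Nlrc5 0.19 (genotype over the 3 populations). In that setting MPP1 control 1 was the only control library left in MPP1. With libraries or ID numbers left out in turn, the log2 differences whose range crossed 0 were these. For MPP1 against HSC: H2-D1 -0.10 to 0.0572, H2-K1 -0.0829 to 0.18, Psmb10 -0.14 to 0.0828, Psmb8 -0.0679 to 0.18, Psmb9 -0.11 to 0.23, Tap1 -0.16 to 0.0146. For MPP4 against HSC: Nlrc5 -0.39 to 0.0638. For MPP4 against MPP1: B2m -0.0308 to 0.14, Psmb10 -0.15 to 0.12. For genotype in HSC: B2m -0.022 to 0.21, H2-K1 -0.0268 to 0.18, Psmb10 -0.12 to 0.28. For genotype in MPP1: B2m -0.40 to 0.15, H2-D1 -0.0364 to 0.23, Nlrc5 -0.0341 to 0.88, Psmb10 -0.24 to 0.54, Psmb8 -0.12 to 0.50, Psmb9 -0.16 to 0.34, Tap2 -0.58 to 0.0738, Tapbp -0.49 to 0.0494. For genotype in MPP4: B2m -0.13 to 0.23, Psmb10 -0.14 to 0.14, Tap2 -0.54 to 0.0804. For genotype over the 3 populations: B2m -0.11 to 0.19, Nlrc5 -0.59 to 0.0589, Psmb10 -0.0836 to 0.19, Tapbp -0.19 to 0.16.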
